A study of Mus musculus with 4 samples.

Results

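The genes described here are 8 mouse genes of the neuregulin and ErbB family, taken as a fixed list of names: the receptor genes Erbb2, Erbb3, Erbb4 and Egfr, and the ligand genes Nrg1, Nrg2, Nrg3 and Nrg4, out of 31053 genes in the count tables. They were selected on their measured levels by cell class, region label and AAV label in these 4 libraries, so those levels are given as a description, without a test. Nuclei came from brains of male C57BL/6J mice aged 8 weeks, given an adeno-associated virus (AAV) by the cisterna magna. AAV-VEGF-C encoded full-length mouse VEGF-C. AAV-CTRL encoded a truncated soluble VEGFR-3 fused to an immunoglobulin part that does not bind VEGF-C, so the control brains also received a vector that encodes a secreted protein. Tissue of 5 brains was pooled per AAV, and the same pools gave a library labelled cortex and one labelled striatum. There were therefore 4 libraries of single nuclei and 1 library per group. No test across mice could be made, no p-value is given, and every interval below is a 95% interval that covers counting error only.

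Neuregulins are growth factors that carry an EGF-like domain and bind ErbB3 or ErbB4. ErbB3 has a nearly inactive kinase and signals with a partner such as ErbB2, which has no ligand of its own. ErbB4 is an active kinase. Egfr (ErbB1) binds EGF, TGF-alpha and related ligands rather than neuregulins. In the brain, neuregulin 1 and neuregulin 3 made by neurons are best known for acting on ErbB4 of cortical interneurons, where they shape the synapses these cells receive. In peripheral nerve, neuregulin 1 on axons acts through ErbB2 and ErbB3 on Schwann cells.

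In GENCODE vM21 on GRCm38, Erbb4 lies on chromosome 1 from 68032186 to 69108059 (minus strand), Nrg1 on chromosome 8 from 31814551 to 32884029 (minus) and Nrg3 on chromosome 14 from 38368952 to 39473088 (minus). These 3 genes each span more than 1069 kb, with an exon length of 12.4, 10.4 and 6.82 kb in that order. Egfr lies on chromosome 11 from 16752203 to 16918158 (plus), Nrg2 on chromosome 18 from 36017652 to 36197380 (minus) and Nrg4 on chromosome 9 from 55220222 to 55326844 (minus), with spans of 166, 180 and 107 kb. Erbb2 (chromosome 11, 98412470 to 98437716, plus) and Erbb3 (chromosome 10, 128567523 to 128589652, minus) span 25.2 and 22.1 kb. Whether reads in introns were counted was not stated, and long genes give many such reads in nuclei. Levels are therefore compared between cells for 1 gene at a time, and never between genes.

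The tables held 17168 and 20370 nuclei for the cortex label and 23724 and 17466 for the striatum label, in the order AAV-CTRL and AAV-VEGF-C, with 63165470, 78332657, 77253372 and 67773329 unique molecular identifiers (UMIs). This order of the 4 libraries is kept throughout. After doublets were left out, 73184 of 78728 nuclei remained. Pairs of libraries shared 76 to 118 barcodes. The region labels went against striatal genes: Ppp1r1b, which striatal projection neurons express, stood at 63.1, 75.9, 18.8 and 18.6 CPM (a gene's UMIs per 1000000 UMIs of all genes), and Slc17a6, the transporter of subcortical glutamatergic neurons, at 15.8, 16.0, 148 and 176 CPM. Olfactory sensory neurons of the nose, a tissue next to the brain, made up 1.09% of the striatum-labelled AAV-CTRL nuclei and at most 0.0913% of any other library. For these reasons the libraries are called by their labels only. Classes of nuclei were named from marker genes, with the 8 genes kept out of the clustering. The larger groups were 2183 interneurons, 3471 striatal projection neurons (SPNs), 4113 subcortical neurons, 12997 nuclei of the oligodendrocyte lineage and 9168 astrocytes. Another 15363 neurons stayed without a name.

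Neuronal transcripts were also counted in nuclei of other cells. Snap25, a neuronal gene, stood at 1175 CPM in microglia and 902 CPM in Pvalb interneurons. Microglia were therefore used as the background class for the 8 genes. There Nrg3 stood at 377 CPM, Nrg1 at 212 CPM, Erbb4 at 101 CPM, Nrg2 at 36.4 CPM, Egfr at 19.2 CPM, Erbb3 at 5.90 CPM, Nrg4 at 2.21 CPM and Erbb2 at 0.737 CPM. Endothelial nuclei were near these values for Nrg3 at 371 CPM, Nrg1 at 204 CPM and Erbb4 at 122 CPM, while Erbb2 was higher there at 8.94 CPM and Egfr lower at 8.11 CPM. A class near these values is read here as not above background.

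**Figure D1:**
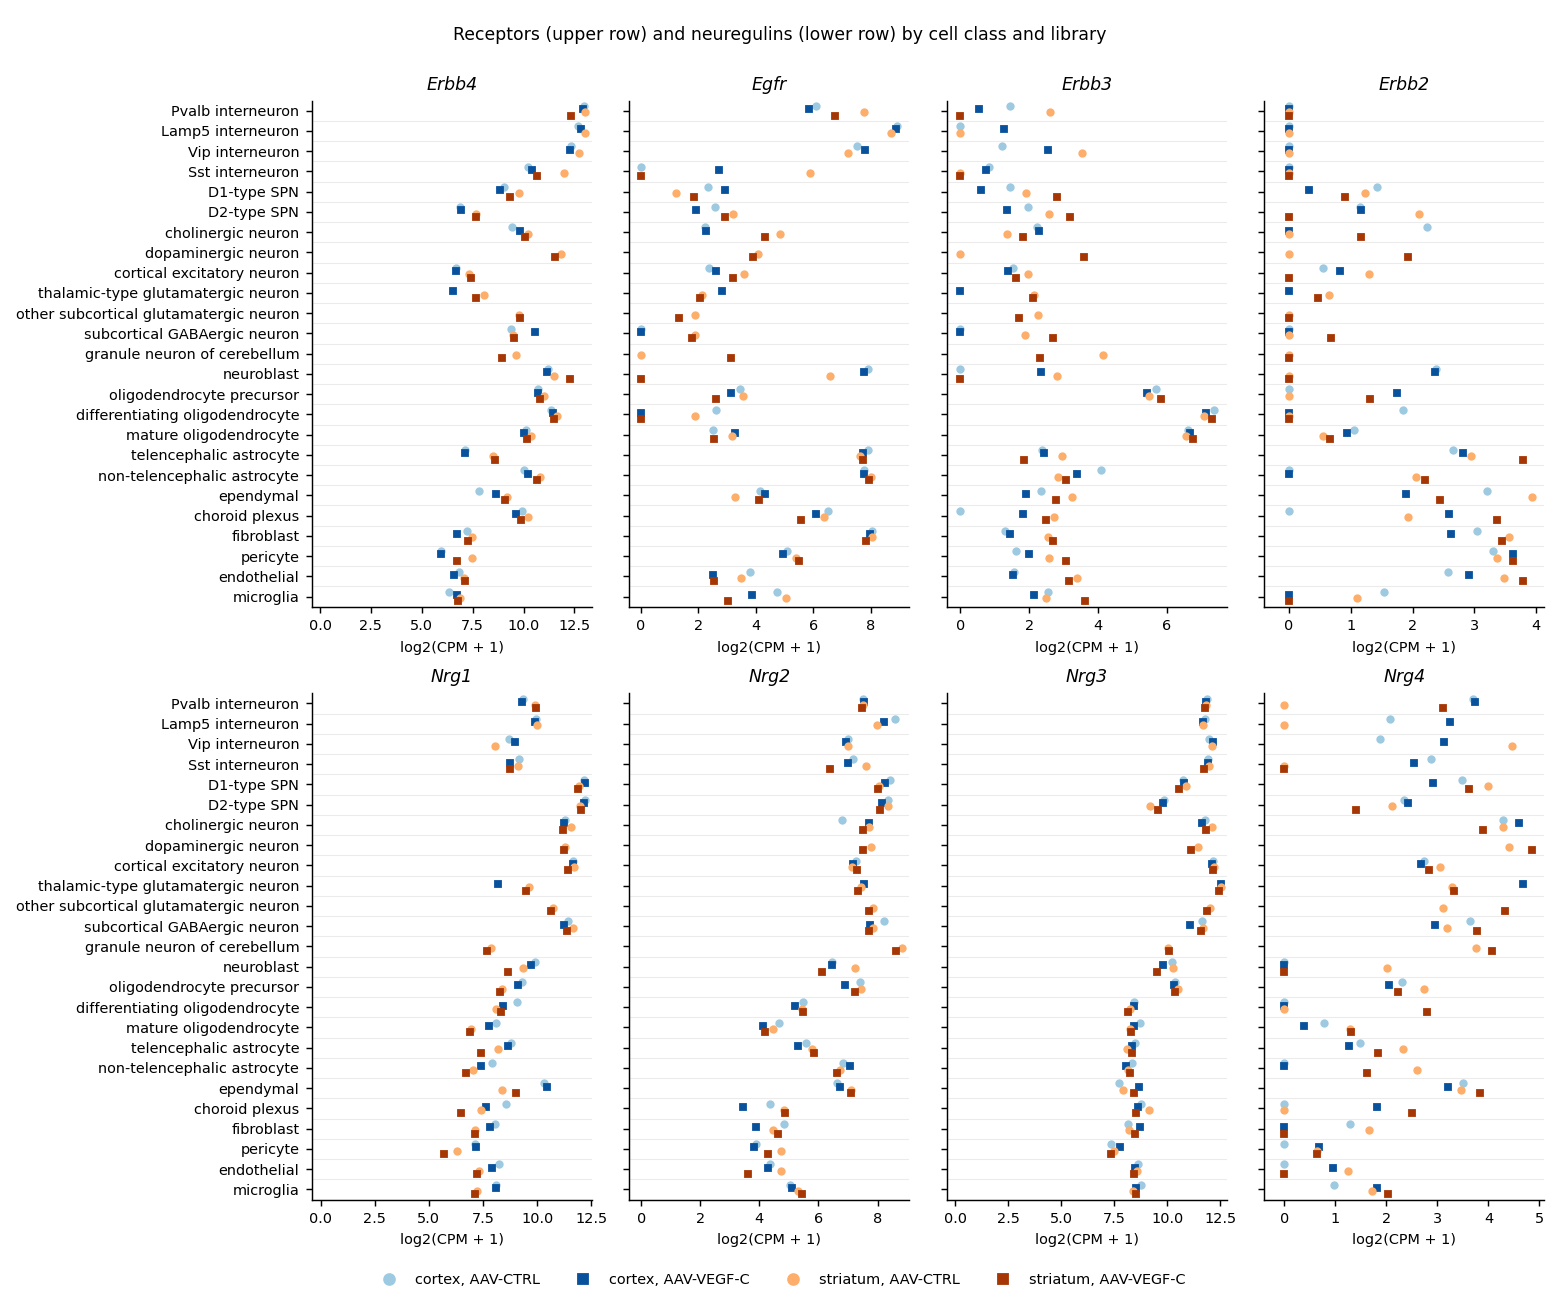
Level of each of the 8 genes as log2(CPM + 1) on the x axis for 25 classes of nuclei on the y axis, with 1 point per library (circles AAV-CTRL, squares AAV-VEGF-C, blue cortex label, orange striatum label) where the class held at least 15 nuclei. Erbb4 and Erbb3 differ between classes far more than between libraries, and microglia at the bottom give the background level of each gene.

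Erbb4, the neuregulin receptor of interneurons, was highest in 3 of the 4 interneuron classes. Pvalb interneurons, which inhibit the soma of their targets, held Erbb4 at 8071, 7806, 8197 and 5181 CPM, and at 7853 CPM over all 833 nuclei (interval 7769 to 7937). Lamp5 interneurons held 6625 and 7308 CPM in the cortex-labelled libraries and 7152 CPM over 312 nuclei (7015 to 7292). Vip interneurons, which mostly inhibit other interneurons, held 5123 and 5071 CPM in the same libraries and 5222 CPM over 464 nuclei (5120 to 5326). The Pvalb and Lamp5 classes overlapped when the single libraries were compared, so their order rests on the pooled sum. The striatum-labelled libraries gave only 17 and 9 Lamp5 and 21 and 5 Vip nuclei.

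Sst interneurons, which inhibit dendrites, were apart from the other interneurons. They held Erbb4 at 1204, 1352, 4106 and 1614 CPM, and at 1392 CPM over 574 nuclei (1349 to 1436). The third value came from 19 nuclei and the fourth from 15. In both cortex-labelled libraries the Sst level was under that of each other interneuron class, and it was more than 10 times that of microglia. At least 1 Erbb4 UMI was seen in 70.0% of Sst nuclei against 99.4% of Pvalb nuclei and 13.4% of microglia, at median depths of 4837, 4804 and 1475 UMIs. After each nucleus was thinned to 1000 UMIs these shares were 38.9%, 98.3% and 8.71%. The Sst level was 2156 CPM when the 8 genes were kept in the clustering, and 5298 CPM at Leiden resolution 0.6, where Pvalb and Sst nuclei were merged.

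Egfr split the interneurons in another way. Lamp5 interneurons held Egfr at 474, 470, 416 and 167 CPM (460 CPM over all, 426 to 496), the highest of any class. Vip interneurons held it at 182 and 220 CPM in the cortex-labelled libraries. Sst interneurons held 4.86 CPM over 574 nuclei (2.66 to 8.15), under the 19.2 CPM of microglia. An Egfr UMI was seen in 73.4% of Lamp5 nuclei and 2.22% of microglia, and in 34.0% and 1.49% after thinning.

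The Pvalb class held 2 clusters that shared Erbb4 and differed in Egfr. The larger, with 705 nuclei led by Eya4 and Sox6, held Erbb4 at 8171 CPM (8079 to 8264) and Egfr at 9.64 and 13.8 CPM in the cortex-labelled libraries. The smaller, with 128 nuclei, was led by Moxd1, Egfr, Gna14 and Pthlh, and held Erbb4 at 5865 CPM. Its Egfr level was 539, 438, 444 and 165 CPM in 43, 49, 19 and 17 nuclei. Every library of the smaller cluster lay above these levels. Egfr was among the leading genes of this cluster, and was itself kept out of the clustering. Egfros, a gene that overlaps Egfr on the opposite strand, was not kept out. It was among the leading genes of the Lamp5 cluster. The Egfr levels of these clusters may therefore not be independent of how the clusters were formed. The share of this cluster within the Pvalb class was greater in the striatum-labelled libraries, and the Egfr level of the Pvalb class as a whole was 67.0, 56.9, 217 and 107 CPM.

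**Figure D2:**
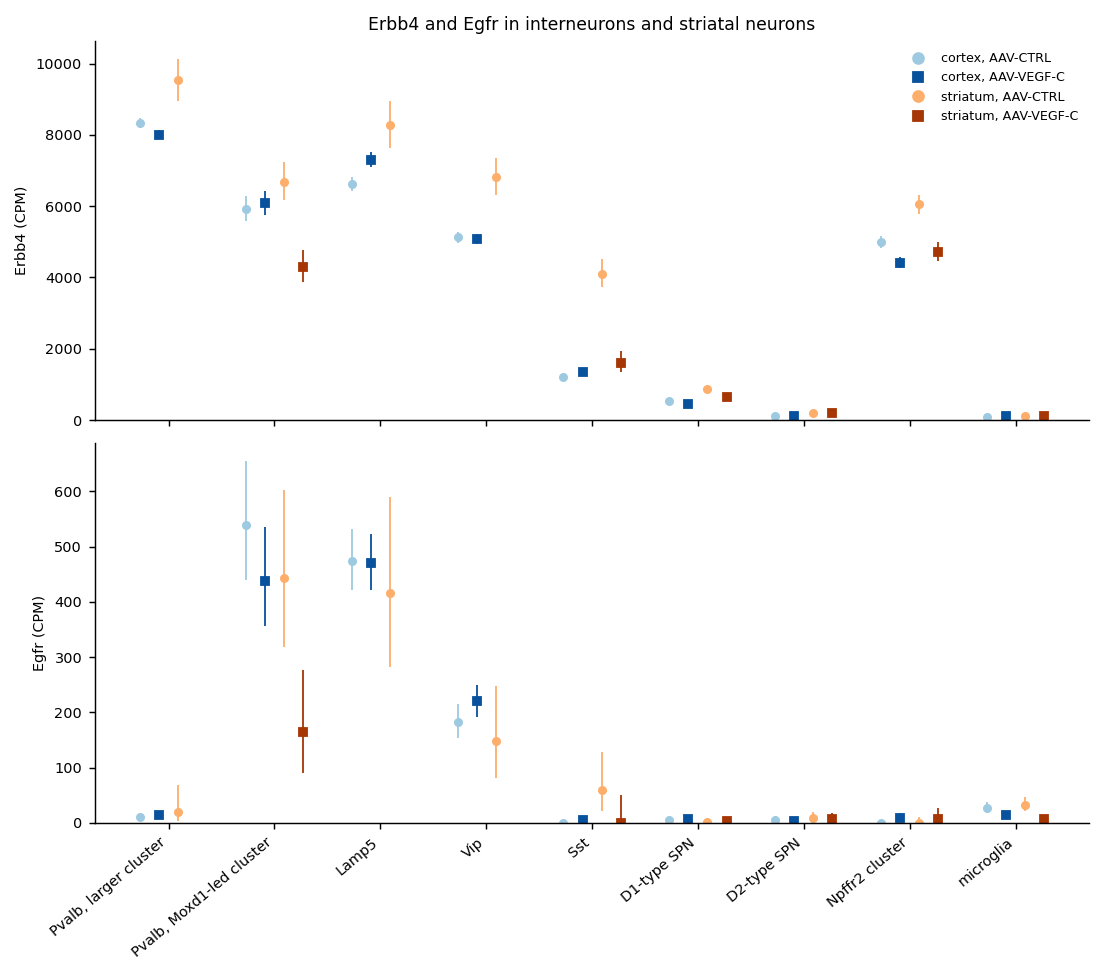
Erbb4 (upper panel) and Egfr (lower panel) in CPM on linear y axes, by library, for interneuron classes, the 2 Pvalb clusters, SPNs, an unnamed cluster led by B020031H02Rik and Npffr2, and microglia. Bars are 95% Poisson intervals of the UMI count and groups under 10 nuclei are not drawn. Egfr is high in Lamp5 nuclei and in the smaller Pvalb cluster and near microglia in the larger one.

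Among striatal projection neurons, Erbb4 was higher in the D1-type than in the D2-type class. D1-type SPNs, which carry the dopamine receptor Drd1, held Erbb4 at 521, 455, 875 and 640 CPM (562 CPM over 1878 nuclei, 547 to 578). D2-type SPNs, which carry Drd2, held it at 119, 119, 201 and 201 CPM (133 CPM over 1593 nuclei, 125 to 142). The lowest D1-type library was above the highest D2-type library. D2-type levels were near the background of 78.6, 104, 117 and 107 CPM that microglia of the same libraries gave.

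A separate cluster of 491 neurons, led by B020031H02Rik, Npffr2 and Chst9, expressed 8 of the 11 markers of D1-type SPNs but was left unnamed, as its leading genes held none of them and at least 1 marker of another class. It held Erbb4 at 4991, 4414, 6050 and 4715 CPM, which was 6.92 to 9.69 times the D1-type level of the same library. The cluster was near the pooled 5222 CPM of Vip interneurons. It was above the 1392 CPM of Sst interneurons and below the pooled 7152 CPM of Lamp5 and 7853 CPM of Pvalb interneurons. An Erbb4 UMI was present in 98.0% of its nuclei. It was chosen for mention after its values were seen. The D1-type level depended on the clustering: it was 1282 CPM with no doublets left out, 1199 CPM at a coarser clustering (Leiden resolution 0.6) and 428 CPM when the libraries were clustered separately. The D2-type level was 337, 118 and 343 CPM under these settings, below the D1-type level in each.

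In subcortical neurons, Erbb4 varied from cluster to cluster. The thalamic-type glutamatergic class held 228 CPM over 2599 nuclei (221 to 235), but its 5 clusters ran from 78.5 to 1551 CPM. The highest, of 392 nuclei, had Tac2, Gpr151 and Chrna3 among its leading genes. It carried 4 of the 9 markers of the thalamic-type class, the smallest share of the 5 clusters, and none was among its leading genes. Its name is therefore uncertain, and the median of the 5 clusters was 155 CPM. The 4 clusters of subcortical GABAergic neurons ran from 88.9 to 1779 CPM. Dopaminergic neurons held 3629 and 3022 CPM in 35 and 47 nuclei of the striatum-labelled libraries and no nuclei of the others had this name. Cholinergic neurons held 1043 CPM over 307 nuclei (998 to 1089). Cortical excitatory neurons held 101 and 102 CPM in the cortex-labelled libraries, against 78.6 and 104 CPM in microglia of the same libraries, and their 16 clusters ran from 39.4 to 410 CPM.

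Among non-neuronal and immature cells, neuroblasts held Erbb4 at 2350, 2253, 2850 and 4963 CPM, the last in 31 nuclei. The choroid plexus, which secretes cerebrospinal fluid, held 984, 786, 1183 and 954 CPM. Ependymal cells, which line the ventricles, held 466 CPM over 390 nuclei. All 3 classes were above the 101 CPM of microglia.

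The oligodendrocyte lineage carried Erbb3 and Erbb4 at every stage, and both were highest in the middle stage. Erbb3, the receptor that needs a partner kinase, stood at 50.2, 41.8, 44.0 and 56.2 CPM in oligodendrocyte precursors. It stood at 165, 139, 133 and 159 CPM in differentiating oligodendrocytes and at 96.7, 102, 93.8 and 108 CPM in mature oligodendrocytes. The 3 stages did not overlap across the libraries. Pooled values were 48.0 CPM (42.1 to 54.4), 149 CPM (132 to 169) and 101 CPM (96.2 to 105) over 2071, 498 and 10428 nuclei. Outside the lineage, the highest Erbb3 level was in sustentacular or respiratory epithelium of the nose, with 166 CPM over 268 nuclei (134 to 204), and the next class was olfactory sensory neurons, at 17.0 CPM.

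An Erbb3 UMI was found in 10.5% of precursors, 35.3% of differentiating and 16.1% of mature oligodendrocytes, against 0.904% of microglia. Median depths were 2351, 3326, 1743 and 1475 UMIs. At 1000 UMIs per nucleus the shares were 4.55%, 13.9%, 9.51% and 0.482%, so the order of the stages was the same at equal depth.

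Erbb4 was also highest in the differentiating stage but, unlike Erbb3, was higher in precursors than in mature oligodendrocytes. Precursors held 1673, 1683, 2086 and 1800 CPM. Differentiating oligodendrocytes held 2640, 2799, 3203 and 2906 CPM, and mature oligodendrocytes 1100, 1049, 1319 and 1157 CPM. Again the stages did not overlap between libraries, and mature oligodendrocytes were at 10.1 to 14.0 times the level of microglia of the same library. Erbb2, the usual partner of Erbb3, gave 0.733 CPM over the lineage, from 19 UMIs in 12997 nuclei, which was no more than microglia gave.

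Within the lineage, Nrg3 was above the level of microglia in precursors only. Precursors held Nrg3 at 1345, 1260, 1463 and 1332 CPM. Differentiating and mature oligodendrocytes held 321 and 332 CPM over all libraries, under the 377 CPM of microglia. Nrg2 went the same way, with 152 CPM in precursors (141 to 163), 41.4 CPM in differentiating and 19.4 CPM in mature oligodendrocytes. Egfr was at 6.52 CPM over the lineage, under microglia. Nrg1 was at 441 CPM in precursors, 363 CPM in differentiating and 159 CPM in mature oligodendrocytes, against 212 CPM in microglia. Microglia may overstate the background in differentiating oligodendrocytes, where the neuronal gene Snap25 was at 524 CPM against 1175 CPM in microglia.

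Astrocytes fell into 2 clusters, named telencephalic and non-telencephalic from their markers, and Erbb4 separated them. The non-telencephalic cluster had Agt, Itih3 and Slc6a11 of its own marker list among its leading genes. Slc7a10, a marker on the telencephalic list, was also among them, so the markers did not all go with the names. Telencephalic astrocytes held Erbb4 at 138, 138, 366 and 389 CPM (169 CPM over 4657 nuclei, 160 to 177). Non-telencephalic astrocytes held 1035, 1185, 1826 and 1627 CPM (1720 CPM over 4511 nuclei, 1693 to 1747). The lowest non-telencephalic value, from 64 nuclei, was above the highest telencephalic one. An Erbb4 UMI was seen in 85.3% and 21.5% of the nuclei, and in 74.1% and 13.3% after thinning, at median depths of 1877 and 1833 UMIs. In the cortex-labelled libraries 64 and 58 nuclei were non-telencephalic, and in the striatum-labelled ones 2546 and 1843.

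Within telencephalic astrocytes, Erbb4 was higher under the striatum label, by a log2 ratio of 1.40 (1.18 to 1.62) for AAV-CTRL and 1.49 (1.22 to 1.75) for AAV-VEGF-C. The summed level of the 5 markers of non-telencephalic astrocytes moved with it, at 471, 507, 884 and 800.5 CPM. The sum of the 12 markers of mature oligodendrocytes did so too, at 1122, 1061, 2426 and 2311 CPM. Their part in this difference was not tested.

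Egfr did not separate the astrocyte clusters. Telencephalic astrocytes held 235, 211, 198 and 208 CPM and non-telencephalic ones 217, 216, 252 and 243 CPM, and the ranges overlapped. They were at 6.16 to 33.5 times the level of microglia of the same library, where microglia gave 7.23 to 32.1 CPM. Nrg2 stood at 43.7 CPM in telencephalic astrocytes (39.5 to 48.3), near the 36.4 CPM of microglia, and at 103 CPM in non-telencephalic ones (96.0 to 109). Fibroblasts held Egfr at 251 CPM, and neuroblasts at 239, 214, 93.9 and 0 CPM. The 2 fibroblast clusters held 165 and 452 CPM, the latter close to the 460 CPM of Lamp5 interneurons.

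**Figure D3:**
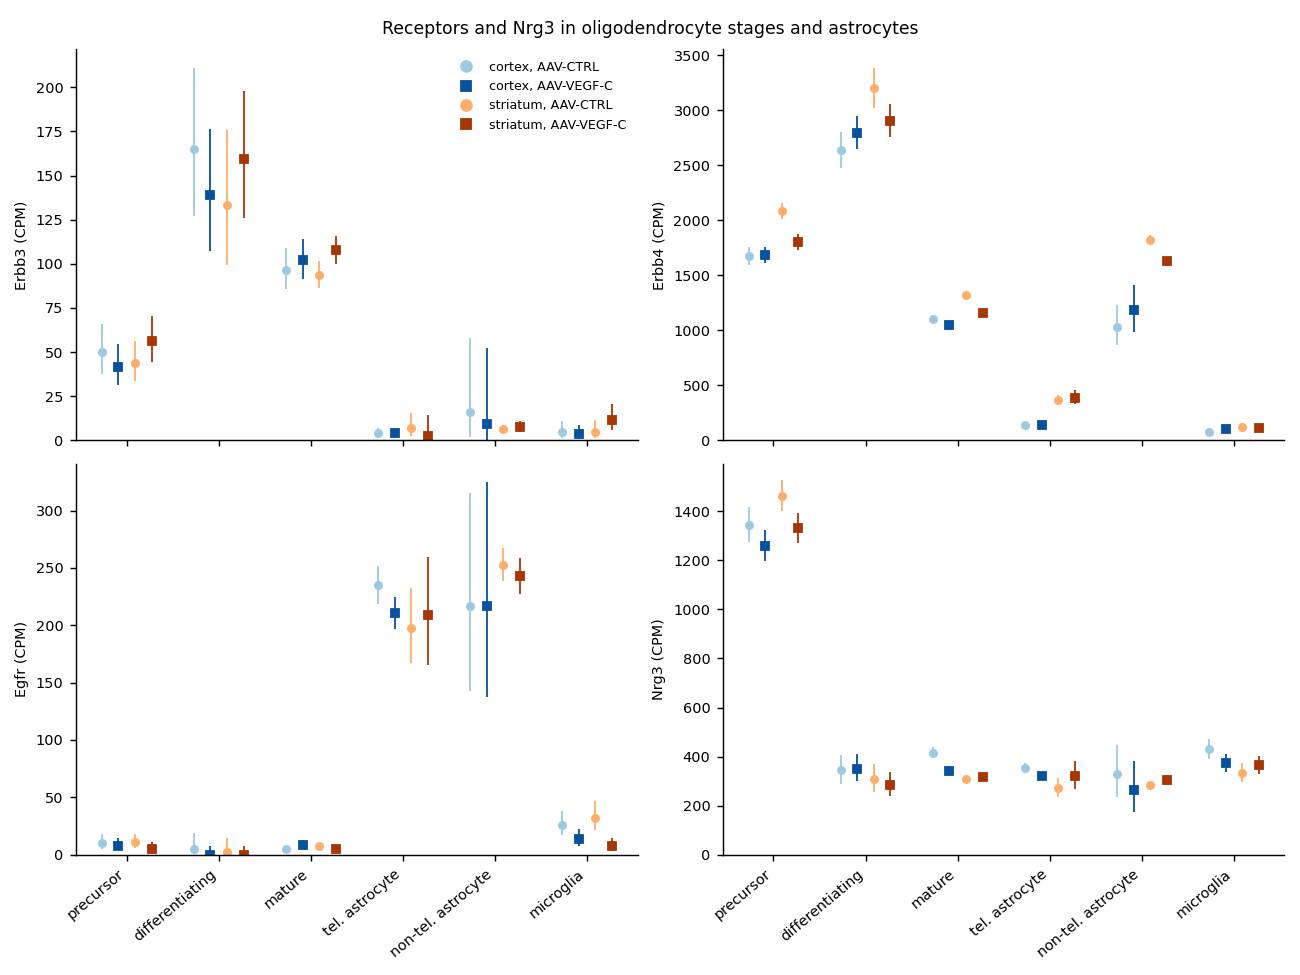
Erbb3, Erbb4, Egfr and Nrg3 in CPM on linear y axes, by library, for oligodendrocyte precursors, differentiating and mature oligodendrocytes, telencephalic (tel.) and non-telencephalic (non-tel.) astrocytes and microglia, with 95% Poisson intervals. Erbb3 is at 133 to 165 CPM in differentiating oligodendrocytes, Erbb4 separates the astrocyte clusters, Egfr does not, and Nrg3 is above microglia in precursors.

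Among whole named classes, Nrg1, the best known neuregulin, was highest in SPNs and in excitatory neurons of the cortex. D2-type SPNs held Nrg1 at 4756, 4582, 4049 and 4213 CPM, and D1-type SPNs at 4642, 4697, 3913 and 3811 CPM. The classes overlapped between libraries. Cortical excitatory neurons held 3271, 3186, 3317 and 2772 CPM, and subcortical GABAergic neurons 2946 CPM over 847 nuclei (2892 to 3002). These classes were at 8.87 to 30.6 times the level of microglia of the same library. Clusters within them varied. The 4 clusters of subcortical GABAergic neurons ran from 1271 to 5033 CPM. The 2 D1-type clusters held 4703 and 796 CPM, and the larger D2-type cluster 4558 CPM.

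Interneurons held much less Nrg1 than SPNs, at 635, 597, 741 and 717 CPM, and the 4 values lay below every SPN library. Thalamic-type neurons held 736 CPM over 2599 nuclei (724 to 748). The 16 clusters of cortical excitatory neurons with at least 50 nuclei ran from 534 to 5896 CPM of Nrg1. The lowest, led by Npy, Sst and Nov, had a median depth of 1623 UMIs, against 6357 for the highest, led by Pdzrn3 and Gm20752.

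In microglia and mature oligodendrocytes, Nrg1 was higher under the cortex label. Microglia gave 271, 270, 147 and 137 CPM. Mature oligodendrocytes gave 270, 219, 122 and 118 CPM, about the same or less. The summed level of 8 pan-neuronal genes in microglia was 5243, 4924, 4233 and 4000 CPM. Telencephalic astrocytes gave 442, 406, 290 and 170 CPM, at 1.24 to 1.98 times the level of microglia of the same library.

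Among whole named classes, Nrg3, a ligand of ErbB4, was highest in thalamic-type glutamatergic neurons, at 5743 CPM over 2599 nuclei (5709 to 5777). Its 2 larger libraries gave 5946 and 5562 CPM. Cortical excitatory neurons held 4609, 4508, 4738 and 4643 CPM. By cluster the order was not clear. The 5 thalamic-type clusters ran from 3751 to 6296 CPM, and the 16 cortical excitatory clusters with at least 50 nuclei from 684 to 6622 CPM. An unnamed cluster of 112 neurons held 6683 CPM. Interneurons held 3784, 3855, 3890 and 3830 CPM, the narrowest range among the broad neuronal groups.

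SPNs held the least Nrg3 of the broad neuronal groups, and the D1-type and D2-type classes differed. D1-type SPNs held 1722, 1798, 1867 and 1493 CPM. D2-type SPNs held 929, 882, 591 and 766 CPM, and every D2-type library lay below every D1-type library. Nrg3 and Erbb4 were thus both higher in the D1-type class as a whole, whereas Nrg1 did not separate the 2 classes. The 2 D1-type clusters differed in Nrg3, with 1816 CPM in the larger and 769 CPM in the one of 222 nuclei. The latter was near the 776 CPM of the larger D2-type cluster. Erbb4 was at 567 and 498 CPM in these D1-type clusters and 135 CPM in that D2-type cluster.

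Nrg2 was highest in granule neurons of the cerebellum, at 414 CPM over 288 nuclei (361 to 473), in Lamp5 interneurons, at 328 CPM (299 to 359), and in SPNs, at 304 CPM (296 to 313). The last 2 intervals overlapped. Cortical excitatory neurons held 155, 143, 138 and 158 CPM. All were above the 36.4 CPM of microglia.

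Nrg4, which binds ErbB4 and is best known from fat, was sparse, with 1795 UMIs over all kept nuclei. Among whole named classes of neurons, its highest level was 24.6 CPM in 82 dopaminergic neurons (13.8 to 40.6). Next were 17.3 CPM in 288 granule neurons (7.89 to 32.7) and 17.2 CPM in 307 cholinergic neurons (11.9 to 24.0). Single clusters could be higher, as 1 D1-type SPN cluster of 222 nuclei held 27.7 CPM. Outside neurons, sustentacular or respiratory epithelium of the nose held 28.9 CPM over 268 nuclei. Pvalb interneurons held 11.5 CPM over 833 nuclei from 49 UMIs. Mature oligodendrocytes held 1.15 CPM, under microglia.

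Erbb2 was sparser still, with 399 UMIs over all kept nuclei. No Erbb2 UMI was found in the 2183 interneurons, which allows a level of up to 0.286 CPM (3 UMIs). The highest levels were 28.9 CPM in sustentacular or respiratory epithelium (16.5 to 46.9), 10.3 CPM in pericytes (7.98 to 13.0), 9.22 CPM in fibroblasts and 8.94 CPM in endothelial cells. Telencephalic astrocytes held 6.12 CPM (4.59 to 7.98). Erbb2 was thus highest in the nasal epithelium, whose 268 nuclei were 31, 1, 228 and 8 by library. The Erbb3 interval there overlapped that of differentiating oligodendrocytes. Within the brain classes Erbb3 was highest in the oligodendrocyte lineage, where Erbb2 was at background.

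The first comparison asks how the AAV-VEGF-C brains differed from the AAV-CTRL brains. In sums over all kept nuclei, none of the 8 genes reached 1.5-fold in either region label, the limit used here among genes with at least 20 UMIs in the 2 libraries. All 8 passed that minimum in every comparison over all kept nuclei. Of all genes tested, 5.26% passed the limit in the cortex-labelled and 7.73% in the striatum-labelled pair. Under the cortex label the log2 ratios ran from -0.12 for Nrg2 (-0.16 to -0.08) to 0.11 for Erbb2 (-0.34 to 0.55), and Erbb4 was at 0.00 (-0.02 to 0.02).

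Under the striatum label, the largest ratio was that of Egfr, which stood at 37.1 CPM in AAV-CTRL and 27.6 CPM in AAV-VEGF-C. Its log2 ratio was -0.43 (-0.52 to -0.34). Sums over all nuclei mix the number of cells with the RNA per cell, and these cannot be told apart in them. Within astrocytes the log2 ratio of Egfr was -0.03 (-0.15 to 0.09). Fibroblasts, which also held Egfr, made up 3.97% of the AAV-CTRL and 2.09% of the AAV-VEGF-C nuclei under this label, and telencephalic astrocytes numbered 388 and 161 nuclei. Without nasal, fibroblast, red blood cell and neuroblast nuclei, a setting chosen after seeing the data, the log2 ratio was -0.32.

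Erbb3 was at 15.4 and 18.4 CPM under the striatum label, a log2 ratio of 0.26 (0.13 to 0.38). The oligodendrocyte lineage made up 20.0% and 23.2% of the nuclei, and within it the log2 ratio was 0.24 (0.10 to 0.39). With each nucleus thinned to 1000 UMIs the ratio within the lineage was 0.04, and the median nucleus of the lineage had 1751 UMIs in AAV-CTRL and 2108.5 in AAV-VEGF-C. Erbb4 was at 929 and 824 CPM, a log2 ratio of -0.17 (-0.19 to -0.16), and Nrg1 at 1291 and 1155 CPM, with -0.16 (-0.17 to -0.15). The intervals of these ratios lay on 1 side of 0, but they hold no spread between mice. Erbb2 was at 1.95 and 1.49 CPM, a log2 ratio of -0.39 (-0.79 to 0.01), and without nasal, fibroblast, red blood cell and neuroblast nuclei it was -0.16.

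**Figure D4:**
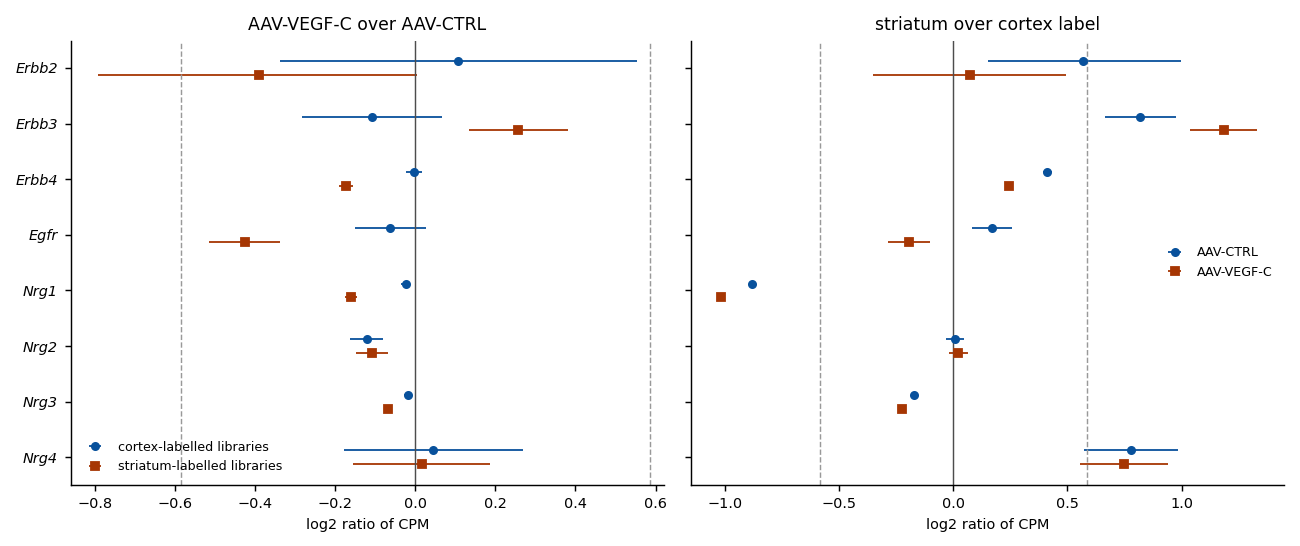
Log2 ratio of CPM over all kept nuclei on the x axis for each of the 8 genes, with 95% exact conditional intervals that cover counting error only. Dashed lines mark 1.5-fold. No gene passes them between AAV-VEGF-C and AAV-CTRL (left), and Erbb3, Nrg4 and Nrg1 pass them between striatum and cortex label (right).

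Within classes, few of the family genes passed 1.5-fold between the AAV labels. Under the cortex label 0 genes of the family passed 1.5-fold: 0 of 6 tested in interneurons (7.21% of all genes passed), 0 of 6 in SPNs (7.35%), 0 of 6 in the oligodendrocyte lineage (6.63%) and 0 of 7 in astrocytes (7.04%). Interneuron Erbb4 was 5386 CPM in AAV-CTRL and 5474 CPM in AAV-VEGF-C there, a log2 ratio of 0.02 (0.00 to 0.05). Under the striatum label 0 of 5 passed in SPNs (11.6% of all genes) and 0 of 7 in subcortical neurons (7.87%). There, 1 of 7 passed in the oligodendrocyte lineage (7.35%) and 1 of 8 in astrocytes (7.91%). The first was Egfr, with 8.13 and 4.64 CPM, both under the pooled microglial level. The second was Nrg4, with 4.93 and 2.10 CPM and a log2 ratio of -1.23 (-2.50 to -0.10).

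Erbb4 in SPNs under the striatum label was 678 CPM in AAV-CTRL and 488 CPM in AAV-VEGF-C, a log2 ratio of -0.47 (-0.60 to -0.35). Under the cortex label the values were 338 and 305 CPM and the ratio -0.15 (-0.24 to -0.06). At 1000 UMIs per nucleus the cortex-label ratio was 0.04, and with no doublets left out it was -0.37. The striatum-label ratio was -0.32 at 1000 UMIs per nucleus and -0.51 with median-of-ratios size factors, the ends of its range over the alternatives. Interneurons under the striatum label numbered 95 and 52, and gave Erbb4 at 7039 and 5303 CPM and Egfr at 200 and 107 CPM. Their makeup differed, since Pvalb nuclei were 38 and 23, Lamp5 nuclei 17 and 9 and Vip nuclei 21 and 5.

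The second comparison asks how the libraries labelled striatum differed from those labelled cortex. The 2 AAV groups have no library in common here, but each pair came from the same pool of brains. Over all kept nuclei, Erbb3, Nrg4 and Nrg1 passed 1.5-fold in both AAV groups, 3 of the 8 genes, where 30.5% of all genes passed in AAV-CTRL and 30.9% in AAV-VEGF-C. Ratios are read against the median of all genes, which was 0.19 in AAV-CTRL and 0.20 in AAV-VEGF-C on the log2 scale.

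Erbb3 was higher under the striatum label, at 8.75 and 8.12 CPM for the cortex label and 15.4 and 18.4 CPM for the striatum label. Its log2 ratio was 0.82 (0.66 to 0.97) in AAV-CTRL and 1.18 (1.04 to 1.33) in AAV-VEGF-C. Within the oligodendrocyte lineage the ratio was -0.08 (-0.26 to 0.11) and 0.19 (0.02 to 0.35), while the share of the lineage was 13.8%, 14.0%, 20.0% and 23.2% of nuclei. Most mature oligodendrocytes of the cortex label lay in 1 cluster, with 1603, 1857, 55 and 12 nuclei, and most of the striatum label in another, with 73, 82, 3541 and 3205 nuclei. Precursors were 446, 563, 583 and 479 of 2244, 2652, 4289 and 3812 nuclei of the lineage, and the part of this makeup in the ratio was not tested.

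Nrg4 was at 5.09, 5.25, 8.73 and 8.82 CPM, with log2 ratios of 0.78 (0.57 to 0.98) and 0.75 (0.55 to 0.94). With median-of-ratios size factors in place of CPM these were 0.59 and 0.55, and the second was then under the 1.5-fold limit of 0.58.

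Erbb2 was at 1.32, 1.42, 1.95 and 1.49 CPM, and its log2 ratio was 0.57 in AAV-CTRL and 0.07 (-0.35 to 0.50) in AAV-VEGF-C. With each nucleus thinned to 1000 UMIs these were 1.02 and 0.54.

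Nrg1 was lower under the striatum label, at 2376, 2337, 1291 and 1155 CPM. Its log2 ratio was -0.88 (-0.89 to -0.87) in AAV-CTRL and -1.02 in AAV-VEGF-C. Cortical excitatory neurons made up 39.4%, 39.6%, 1.04% and 0.414% of the nuclei. Within SPNs the ratio was -0.25 (-0.28 to -0.21) and -0.23 (-0.27 to -0.20). A D1-type cluster led by Drd3, Gpr149 and Gm12068 held Nrg1 at 796 CPM and made up 70, 33, 73 and 46 of 1200, 1490, 455 and 326 SPN nuclei. The other D1-type cluster held Nrg1 at 4879, 4783, 4386 and 4315 CPM, which was also lower under the striatum label.

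Erbb4 was at 698, 696, 929 and 824 CPM over all kept nuclei, a log2 ratio of 0.41 (0.39 to 0.43) and 0.24 (0.23 to 0.26), and did not pass 1.5-fold. In astrocytes it did, at 170, 164, 1628 and 1515 CPM, with log2 ratios of 3.26 (3.14 to 3.38) and 3.21 (3.10 to 3.32). The non-telencephalic cluster made up 0.393%, 0.305%, 11.9% and 11.2% of the nuclei. Within telencephalic astrocytes Erbb4 was at 138, 138, 366 and 389 CPM, and within non-telencephalic ones at 1035, 1185, 1826 and 1627 CPM. In SPNs the ratio was 1.00 (0.90 to 1.10) and 0.68 (0.56 to 0.79). D1-type nuclei, which held more Erbb4 than D2-type ones, were 619, 748, 306 and 205 of 1200, 1490, 455 and 326 SPN nuclei. Within D1-type SPNs the ratio was 0.75 and 0.49, and within D2-type SPNs 0.76 in both AAV groups. The 10 markers of Pvalb interneurons had summed levels of 756, 793, 1079 and 1060 CPM in these SPNs, and their part in the difference was not tested. The log2 ratio of Egfr was 0.17 (0.08 to 0.26) in AAV-CTRL, or -0.01 with median-of-ratios size factors, and -0.19 (-0.29 to -0.10) in AAV-VEGF-C, Nrg2 was at 0.01 and 0.02, and Nrg3 at -0.17 and -0.22.

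Other genes of the ErbB pathway were followed through a list of 109 ligands, sheddases, inhibitors, adaptors and kinases, written with earlier results of these data known. Between the AAV groups 0 of 106 tested genes were higher and 1 was lower in each region label: Areg, an EGF family ligand, from 13 and 10 UMIs in the cortex-labelled pair, and Muc4, a mucin that binds ErbB2, from 16 and 6 UMIs in the striatum-labelled pair. Both intervals included 0. Of all genes, 5.26% and 7.73% passed. The median log2 ratio of the list was -0.03 and -0.05, against -0.01 and 0.00 over all genes.

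Between region labels, 17 of 106 genes of the list were higher and 7 lower under the striatum label in AAV-CTRL, and 15 were higher and 8 lower in AAV-VEGF-C. Of all genes, 30.5% and 30.9% passed in either direction. The medians were 0.20 and 0.14, near those of all genes. Lrig1, a receptor inhibitor that limits ErbB signalling, had log2 ratios of 1.37 (1.28 to 1.47) and 1.29, and Lrig3 of 0.96 and 1.27. Lrig1 was highest in non-telencephalic astrocytes, at 461 CPM against 93.1 CPM in telencephalic ones, the same direction as Erbb4. Erbin, a scaffold that binds ErbB2, had 0.96 and 0.88, and the transcription factor gene Stat5a 0.93 and 1.18. Camk2a, a kinase of excitatory neurons, had -1.49 and -1.55, and the protein kinase C gene Prkcb -1.16 and -1.31. The EGF family ligand Btc had 1.22 and 1.63 at levels of at most 1.31 CPM. The remaining genes among the 8 largest were Areg in AAV-CTRL, at -1.08 (-2.64 to 0.35), and the adaptor Gab1 and Stat5b in AAV-VEGF-C, at 0.99 and 0.89.

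Across 85 profiles of a class in a library, each of at least 50 nuclei and over 28 classes, the genes whose level of log2(CPM + 1) followed each gene most closely were compared by Pearson's r among 17392 genes. The profiles share libraries and classes, so r is a description only. Erbb3 was most like Ugt8a (r = 0.91), Fa2h (0.88) and Sox10 (0.87). Ugt8a and Fa2h make myelin lipids and Sox10 is the transcription factor of the lineage. Erbb4 had no gene as close: Cacng7 (0.77), Metap1d (0.72) and Zfp536 (0.71).

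For Nrg3 the closest genes were Gm20642 (0.98), Dpp10 (0.95) and Nrg3os (0.93), and for Egfr Egfros (0.87), Zhx2 (0.64) and Gm14964 (0.64). Gm20642 and Nrg3os lie within the span of Nrg3, and Egfros overlaps Egfr, each on the opposite strand. If strand was not used in counting, reads of such pairs cannot be told apart. None of these overlapping genes was kept out of the clustering. Nrg2 was most like Fgf14 (0.93), Ptprn2 (0.89) and Rims2 (0.89), and Nrg1 like Unc79 (0.88), Grm5 (0.87) and 5730522E02Rik (0.87). Nrg4 was most like Osbpl6 (0.79), Kif26b (0.75) and Scn9a (0.75), and Erbb2 like Plscr1 (0.79), Lamb2 (0.79) and Olfml2a (0.78), both from few UMIs.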

How the data were processed

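The deposited tables hold UMI counts per gene and nucleus, which the authors made with Cell Ranger from 10x 3′ v3 libraries and mm10. The file headers name version 5.0.1 and the submitters' processing notes 5.1.1. Intron and strand settings were not given in the sources used here. The authors pooled tissue of 5 mice per AAV. The 8 genes and all lists were chosen with earlier results of these data known.

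Doublets were called with Scrublet at an expected rate of 8%, and 5544 nuclei (called doublets and clusters with at least 40% of them) were left out. Nuclei were clustered in scanpy 1.11.5 on 5000 variable genes without the 8 genes, 50 principal components, 15 neighbours and Leiden resolution 1.2. Neuronal clusters were clustered again at 2.5. This second round, its resolution and the naming rule were chosen after the data were seen. The rule asked for at least 3 markers, 40% of a list, at 2-fold or more and in 10% of nuclei, including defining ones. Nuclei whose median depth was low and whose leading genes held no marker stayed unnamed.

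UMIs were summed per class and library and scaled to CPM. Intervals at 95% are exact Poisson for levels, Clopper-Pearson for shares and conditional binomial for ratios, without replicate error. Ratios were called at 1.5-fold among genes with at least 20 UMIs. For shares at equal depth, nuclei were thinned to 1000 UMIs, which left out 425 to 1492 shallower nuclei per library. The named genes were all 8, pathway genes past the fold (up to 8 per comparison) and 3 genes of like pattern for each. Alternatives were another clustering, scaling, minimum and fold. The functions were tested on simulated data. No test across samples was made.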

Additional observations from a re-analysis of the deposited data

Results flagged for a closer look

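Nrg3 in astrocytes is listed because its AAV-VEGF-C over AAV-CTRL log2 ratio had opposite signs in the 2 region labels, each with a counting interval that excluded 0: -0.14 (-0.25 to -0.03) under the cortex label and 0.12 (0.01 to 0.23) under the striatum label. The difference between the labels was not tested. The levels were 351 and 318 CPM under the cortex label and 282 and 307 CPM under the striatum label, at or under the 377 CPM of microglia. With 1 library per group, no check for a sample apart from its group could be made.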

How the results depend on the processing

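No paired analysis was possible because each group holds 1 library and no result comes from a test. The number of family genes past 1.5-fold kept within 1.5 times its value under every alternative, except that at 2-fold it was 0 in the striatum over cortex comparison of AAV-CTRL. The pathway count of the cortex-labelled AAV pair (1) was 2 at Leiden resolution 0.6 and with each nucleus weighted equally, 0 with at least 50 UMIs and at 2-fold, and 4 with no minimum beyond 1 UMI. That of the striatum-labelled pair (1) was 2 with median-of-ratios size factors, 3 with equal weights and with no minimum, 0 with at least 50 UMIs, and 0 without nasal, fibroblast, red blood cell and neuroblast nuclei, an alternative chosen after seeing the data. At 2-fold the region counts were 5 and 6. No called ratio changed sign. Of 256 ratios over all kept nuclei recomputed, 193 stayed within the counting interval, as did 147 of 184 within classes and 108 of 179 levels. The Erbb4 levels of Sst interneurons and SPNs, given above, moved most, by up to 1.93 on the log2 scale. The share of all genes past 1.5-fold between AAV labels was 2.42% and 4.45% with at least 50 UMIs, 19.0% and 21.4% with no minimum, and 1.22% and 2.63% at 2-fold, and between region labels 14.7% and 15.2% at 2-fold. Leiden resolution 0.6 gave no class of differentiating oligodendrocytes. For the Egfr level of Lamp5 interneurons 7 alternatives gave a value, against 8 for Vip interneurons. Not every alternative therefore gave a Lamp5 class of at least 50 nuclei. The Egfr level of Vip interneurons was 319 CPM at Leiden resolution 0.6, against 202 CPM. The cause of these moves was not tested. Depth limits Erbb2 and Nrg4 most, with 399 and 1795 UMIs.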

Other observations

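Tgfa, Hbegf and Egf, ligands of the EGF family outside the neuregulins, were highest in different classes. Tgfa, a ligand of Egfr, was highest in oligodendrocyte precursors at 170 CPM over 2071 nuclei, followed by D2-type and D1-type SPNs at 125 and 111 CPM, against a median of 18.6 CPM over 29 classes. Hbegf, another Egfr ligand, was highest in pericytes at 35.7 CPM and endothelial cells at 31.2 CPM. Egf itself was highest in neuroblasts at 35.1 CPM over 444 nuclei. Of the enzymes that cleave neuregulins, Bace1 was highest in differentiating oligodendrocytes at 164 CPM and mature oligodendrocytes at 126 CPM, and Adam19 in mature oligodendrocytes at 90.4 CPM. Adam17 was highest in microglia at 134 CPM. Itch, a ubiquitin ligase known to act on ErbB4, was highest in mature and differentiating oligodendrocytes at 315 and 283 CPM. Errfi1, an inhibitor of Egfr, was highest in fibroblasts at 162 CPM. These values are sums over the 4 libraries, and free RNA was not removed from them.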
